A study of Homo sapiens with 11 samples.

Results

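dsEcad640 is a synthetic small interfering RNA (siRNA) duplex whose sequence was taken from the promoter of the E-cadherin gene, and it was transfected into PC-3 cells, an established human prostate cancer cell line. Of the 11 arrays of the study, 1 carried RNA of dsEcad640-transfected cells and 4 carried RNA of mock cells, which received the transfection reagent and no duplex. The array of dsEcad640 (sample 2) was compared with the mock array of the same slide (sample 1), and the mock arrays of the other slides (samples 8, 9 and 11) gave the spread between mock cells. The other 6 arrays carried miRNA duplexes (miR-372 on 2 arrays, and 1 array each of miR-520f, miR-520c, miR-373 and miR-302a). RNA was taken 24 hours after transfection. RNA of 4 transfections was pooled for every array (150 ng), so that the spread between single transfections was averaged before hybridisation. The dsEcad640 treatment therefore has no replicate array, no test was made, and every difference below describes these arrays.

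In RNA interference, one strand of a duplex is loaded into an Argonaute protein and guides it to messenger RNAs. A guide that pairs along its whole length leads to cleavage of the target, whereas pairing of the seed alone, the short stretch near its 5′ end, gives the weaker, broad silencing typical of microRNAs (miRNAs). The family of miR-302 and its relatives is best known from embryonic stem cells, where its members act on cell cycle inhibitors, TGF-β receptors and regulators of chromatin and cell shape. The seed of the antisense strand of dsEcad640 is also carried by miR-520c, miR-373, miR-372 and miR-302a. The mature family members used for comparison are shown because this shared stretch links the arrays, with the seed (bases 2 to 8, counted from the 5′ end) in capitals, as given in RefSeq for GRCh38.p14.
miR-302a-3p: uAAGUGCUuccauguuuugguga
miR-372-3p: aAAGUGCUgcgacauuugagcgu
miR-373-3p: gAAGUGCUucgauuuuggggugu
miR-520c-3p: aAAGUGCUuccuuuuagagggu
miR-520f-3p: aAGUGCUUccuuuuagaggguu
The first 4 share the seed AAGUGCU, and the seed of miR-520f, AGUGCUU, is the same stretch moved by 1 base. The matching site in a transcript reads AGCACTT in DNA letters. MiR-302a-3p lies on the minus strand at chr4:112648186-112648208, and the others lie on the plus strand of chromosome 19, at chr19:53787931-53787953 (miR-372-3p), chr19:53788748-53788770 (miR-373-3p), chr19:53707506-53707527 (miR-520c-3p) and chr19:53682213-53682234 (miR-520f-3p).

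Of the 41000 probes of the array, 27779 (67.8%) were well above background on the dsEcad640 array or on mock sample 1. A difference could be taken for the 25549 of these that the deposited log2 table holds, which are the probes well above background on all arrays of that slide, and they included 12928 genes with a symbol. Levels are given as log2 of the scanner signal over the 75th percentile of each array, so that they can be set beside all 4 mock arrays, and differences as dsEcad640 minus mock sample 1 in the deposited log2 values. Between 54.3% and 88.2% of probes were well above background on each of the 11 arrays, and no spot was saturated. The 4 mock arrays fell into pairs. Mock samples 1 and 8, on different slides, differed with an SD of 0.21 (log2) over probes and mock samples 9 and 11, on 1 slide, with an SD of 0.39, whereas an array of the first pair and one of the second differed with an SD of 0.86 to 0.96. Whether mock samples 1 and 8 were separate transfections or 1 pool of RNA is not given in the sources used here, and in the latter case the mock range would rest on 3 pools and the miR-373 slide would share its mock RNA with dsEcad640.

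The epithelial keratins of PC-3 cells were all bright, with levels of 3.89 for KRT8, 6.55 for KRT18 and 7.00 for KRT19 on the dsEcad640 array and 2.90 to 3.46, 5.77 to 6.08 and 6.62 to 6.86 on the mock arrays. A marker that went against the label was KLK3, prostate-specific antigen, which PC-3 cells are known to lack: its only measured probe had a level of 6.85 under dsEcad640 and of 6.94, 6.79, 3.09 and 3.95 on mock samples 1, 8, 9 and 11. Of 18 markers of blood, endothelial, fibroblast, liver, red cell, muscle and neural cells, 9 were measured, and PTPRC, CDH5, PDGFRB, DCN, APOA1, HBB and MYH7 were among those not well above background on either array. The summed signal of the 9 was 22.3 times the 75th percentile under dsEcad640 and 16.3 to 21.1 times on the mock arrays.

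Under dsEcad640, 291 probes (1.14% of those measured) were at least 2-fold lower than on mock sample 1 and 211 (0.826%) at least 2-fold higher. Of these, 261 (1.02%) were also below all 4 mock arrays and 191 (0.748%) above all 4; they are called lowered and raised here. Counted per gene from the brightest probe, 155 genes (1.2%) were at least 2-fold lower and 120 (0.928%) at least 2-fold higher, of which 146 (1.13%) were lowered and 116 (0.897%) raised beyond all 4 mock arrays. The lower side was larger when the scanner signals were scaled to the 75th percentile instead, with 524 probes at least 2-fold lower and 213 at least 2-fold higher. Probes below all 4 mock arrays by any amount made up 23.4% of all, and those above all 4 made up 19.6%.

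Beside the mock pair of samples 9 and 11, a 2-fold difference alone did not set dsEcad640 apart. Mock samples 9 and 11, which lay on 1 slide and received no duplex, differed at least 2-fold at 267 probes in one direction (0.982% of 27191) and at 341 in the other (1.25%), and the SD of all differences was 0.39, against 0.38 for dsEcad640 minus mock sample 1. Mock samples 1 and 8 were closer, with 15 probes at least 2-fold lower in sample 1 (0.0591% of 25383, scanner signals) and 57 higher (0.225%). Without the requirement of detection on sample 8, they differed at least 2-fold at 122 probes. On the same scanner signals, dsEcad640 differed at least 2-fold from mock sample 1 at 737 probes and from mock sample 8 at 844. In the plot of dsEcad640 minus mock sample 1 and of mock sample 9 minus 11, the bodies and most of the tails overlie each other.

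**Figure D1:**
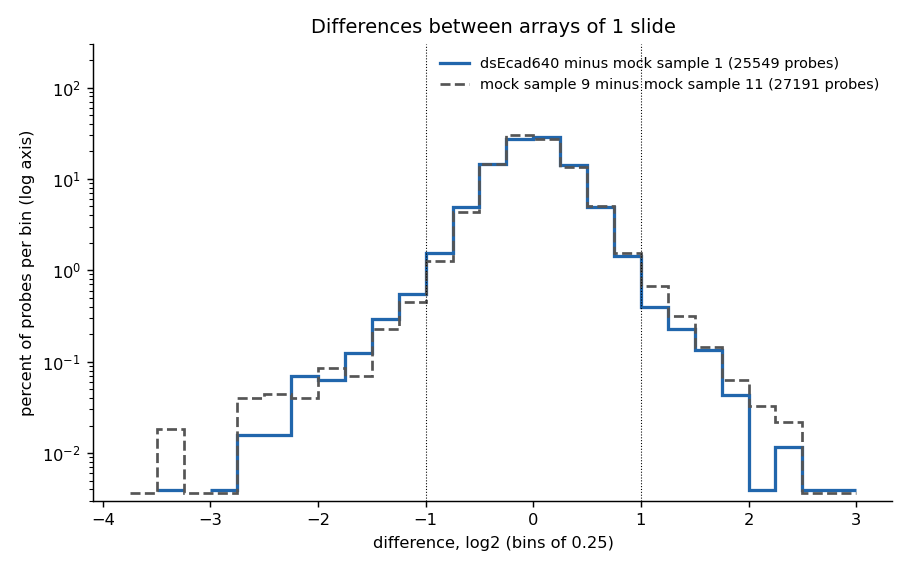
Percent of probes (log axis) in bins of 0.25 of the log2 difference (x axis), for dsEcad640 minus mock sample 1 (solid line) and for mock sample 9 minus mock sample 11 (dashed line). The dotted lines mark 2-fold, past which dsEcad640 had 291 probes lower and 211 higher and the mock pair 267 and 341.

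The probes at least 2-fold lower or higher on slide 1 were then followed on the slides that share no array with it. For this the 291 and 211 probes were taken from dsEcad640 and mock sample 1 alone, a choice of probes made after seeing the data, because the 261 lowered and 191 raised probes had also been chosen on mock samples 8, 9 and 11, from which the differences on the other slides are taken. Under miR-373, 244 of the 248 lower probes measured there lay below mock sample 8 (98.4%, against 54.4% of all probes), with a median difference of -0.69, and 59 were at least 2-fold lower (0.597% of all probes were). If mock samples 1 and 8 were 1 pool of RNA, the miR-373 shares would not be independent of the choice of probes. The same would then hold for the counts over all 3 comparisons. Under miR-372 (sample 10), 261 of 285 lay below mock sample 9 (91.6%, against 49.9%), with a median of -0.81, and 100 were at least 2-fold lower (0.926% of all). Under miR-520c, 270 of 285 lay below mock sample 11 (94.7%, against 49.8%), with a median of -1.19, and 179 were at least 2-fold lower (2.65% of all). Of the 246 lower probes measured in all 3 comparisons, 228 (92.7%) were below mock in every one, against 28.1% of all probes, and 47 were at least 2-fold lower in every one.

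The higher probes did likewise in the other direction. Above mock were 167 of 181 under miR-373 (92.3%, against 45.5% of all), 192 of 210 under miR-372 (91.4%, against 50.1%) and 193 of 210 under miR-520c (91.9%, against 50.1%), with median differences of 0.66, 0.76 and 0.87. At least 2-fold higher were 93 under miR-520c (2.71% of all probes were), 62 under miR-372 (0.978%) and 23 under miR-373 (0.476%). In all 3 comparisons, 164 of 181 (90.6%, against 24.8% of all probes) were above mock. Between mock samples 9 and 11 the same lower and higher probes had medians of 0.05 and -0.19. Among the 261 and 191 probes, whose choice used the mock arrays of those slides, the shares with the same direction in all 3 comparisons were 96.1% and 95.2%. MiR-302a was compared with the same mock array as dsEcad640, so that its medians of -0.82 and 0.80 over these 261 and 191 probes are given only side by side.

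The genes lowered most included enzymes of lipids and of glycosylation, a TGF-β receptor and a transcription factor. MBOAT2, a membrane-bound acyltransferase of phospholipid remodelling, had a level of -2.92 under dsEcad640 and of 0.62, 0.79, 1.11 and 1.42 on mock samples 1, 8, 9 and 11, far below the mock range. It was 9.89-fold lower than on mock sample 1 (difference -3.31; probe at chr2:8910532-8910591 of hg18, the build of the array's coordinates). Another probe of the gene differed by -2.69 and the remaining one by -0.34, so that its 3 probes did not move alike. The ranking of genes took the most changed probe of each gene, whereas the counts of genes took the brightest, which for MBOAT2 was the probe at -0.34. GALNT6, which starts mucin-type O-glycosylation in the Golgi, had a level of -2.24 under dsEcad640 and of 0.83, 0.90, 0.03 and -0.07 on the mock arrays (7.52-fold lower, difference -2.91; chr12:50034173-50034232). Lying below all 4 mock arrays was a condition of the choice of these genes, and for both the gap was wider than the mock range.

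DAZAP2, a small proline-rich adaptor protein, stood at -0.87 under dsEcad640 and at 1.89, 1.93, 2.61 and 2.79 on the mock arrays (6.57-fold lower). BTN3A2, a butyrophilin of the family that γδ T cells recognise, stood at -3.48 against -0.56, -0.58, -0.44 and -0.76 (6.03-fold lower), and its other probe differed by -2.30. RAB32, a small GTPase of mitochondria and lysosome-related organelles, stood at -0.56 against 1.81, 1.95, 1.89 and 2.17 (5.08-fold lower), and its other probe differed by -2.06. These 3 genes, too, were chosen among probes below all mock arrays.

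TGFBR2, the type II receptor for TGF-β, had a level of 0.75 under dsEcad640 and of 2.88, 2.91, 3.25 and 3.17 on the mock arrays (4.39-fold lower, difference -2.14; chr3:30710167-30710226), with a difference of -1.10 at its other probe. PBK, a mitotic kinase, had a level of 0.40 against 2.57, 2.56, 3.16 and 3.26 (difference -2.19). CUX1, a homeodomain transcription factor, had a level of -0.97 against 1.30, 1.29, 1.86 and 1.14 (difference -2.22), but its other probe differed by only -0.37. The remaining genes among the 15 lowered most were MLC1 (-2.55), RNASE4 (-2.48), FITM2 (-2.22), SCARA5 (-2.20), IKBIP (-2.18) and THAP6 (-2.13), of which FITM2, IKBIP and SCARA5 each had another probe, with differences of 0.25, -0.25 and -0.20.

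EFEMP2, an extracellular matrix protein of elastic fibres, also ranked among the 15, but its value rested on mock sample 1. Its level was -5.50 under dsEcad640, -2.68 on mock sample 1 and -5.47, -5.07 and -5.35 on mock samples 8, 9 and 11. The dsEcad640 array thus lay 2.24 below mock sample 1 in the deposited values but at the level of the other mock arrays, with a difference of -0.20 from their mean.

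Among the raised genes, ACVR2B, a type II receptor for activins, had a level of -0.29 under dsEcad640 and of -3.06, -3.00, -2.29 and -2.19 on mock samples 1, 8, 9 and 11 (6.25-fold higher, difference 2.64; chr3:38509311-38509370). Its 3 probes all rose, by 1.48 to 2.64. TDG, a DNA glycosylase that removes oxidised methylcytosine, was at 3.98 against 2.12, 2.18, 2.63 and 3.08 (3.51-fold higher), and its 3 probes differed by 1.39 to 1.81. COL5A2, a chain of type V collagen, was at 2.87 against 0.90, 0.94, 1.41 and 1.60 (3.81-fold higher), with 0.98 at its other probe. For these genes the lowest gap to a mock array was on mock sample 11.

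Several raised genes act on messenger RNA or transcription. DCP2, the enzyme that removes the cap of messenger RNAs, had a level of 1.17 under dsEcad640 and of -0.76, -0.76, -0.49 and -0.19 on the mock arrays (3.73-fold higher), with 0.48 at its other probe. ZC3H12A, an endonuclease that degrades cytokine transcripts, had a level of -0.26 against -1.98, -1.79, -2.02 and -1.59 (3.21-fold higher). ARID3B, a DNA-binding protein, had a level of 1.52 against -0.43, -0.42, -0.31 and -0.10 (3.82-fold higher). The other raised genes were TP53I11 (2.36), MOB3C (2.32), MKX (1.97), ANKRD46 (1.94), SERPINB2 (1.85), IL37 (1.83), HIC2 (1.73), MMP1 (1.73) and PARD6B (1.71), but another probe differed by -0.09 for TP53I11, -0.22 for MOB3C and -0.05 for HIC2.

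**Figure D2:**
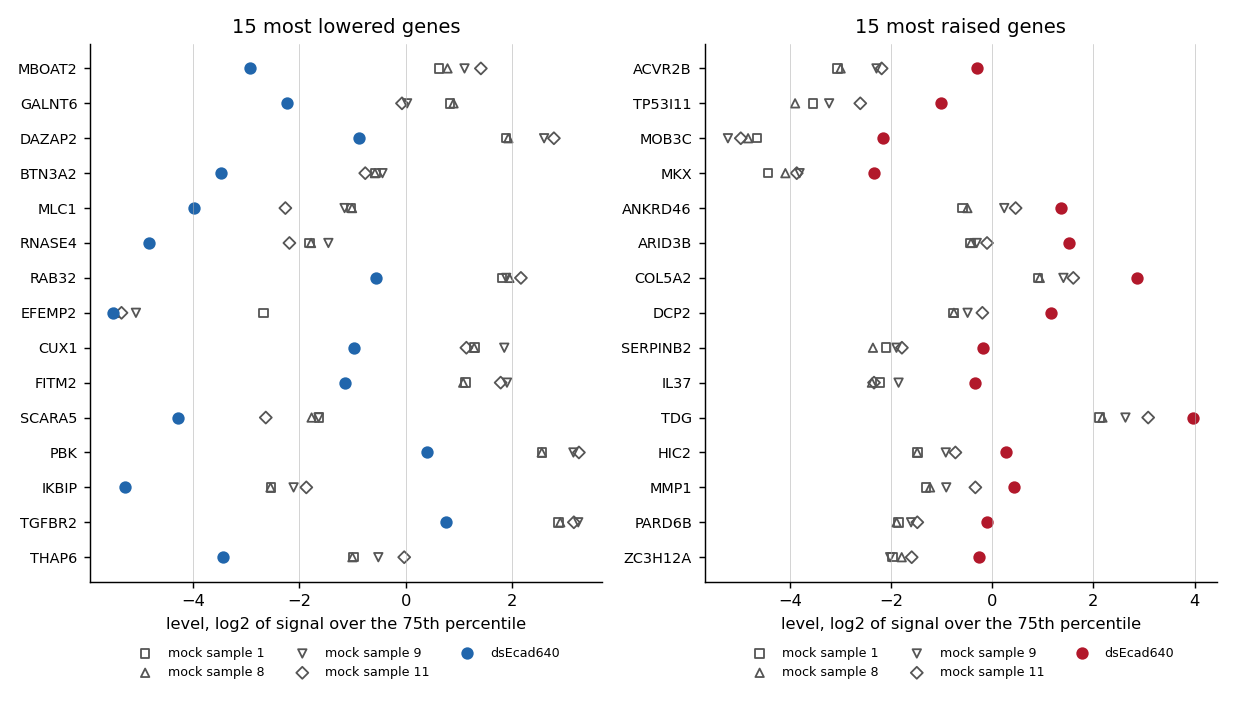
Levels (x axis, log2 of the signal over the 75th percentile of the array) of the 15 genes lowered most and the 15 raised most (y axis), on the dsEcad640 array (filled circles) and on mock samples 1, 8, 9 and 11 (open symbols). Genes were chosen so that the dsEcad640 array lies outside the mock arrays, and for EFEMP2 only mock sample 1 stands apart.

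Probes of 1 gene did not always move together. Of 4781 genes with 2 or more measured probes, 177 had at least 1 probe past 2-fold, all probes of 138 of them lay on the same side of 0, and all probes of 40 were past 2-fold the same way. These changes were spread over bright and dim probes, as the plot of level against difference shows.

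**Figure D3:**
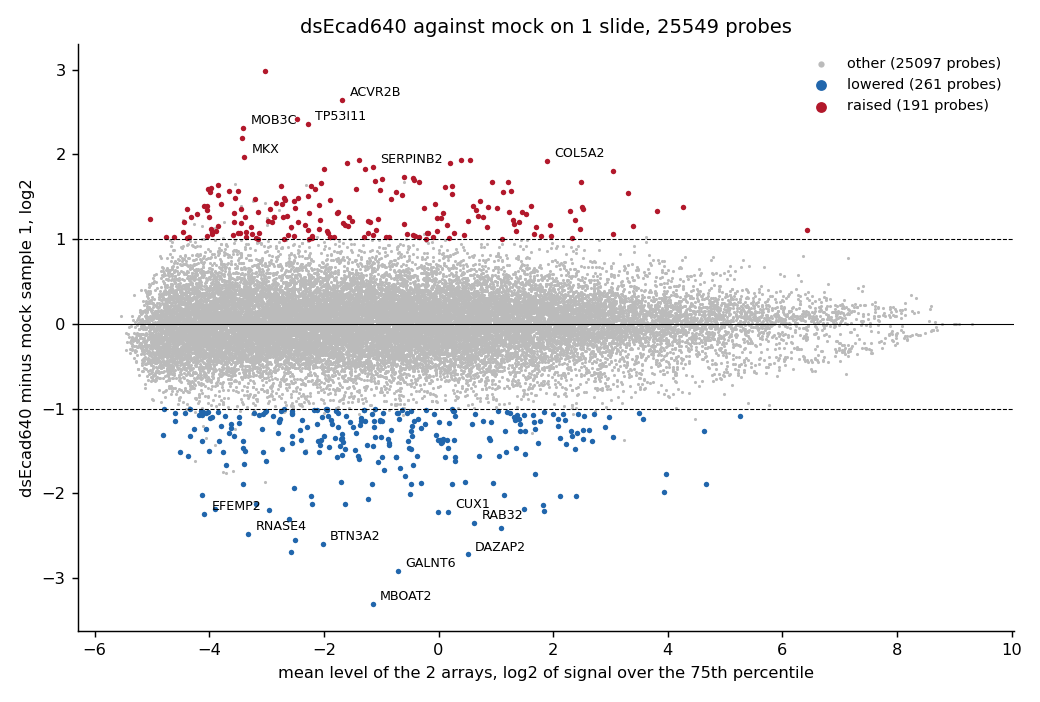
Difference dsEcad640 minus mock sample 1 (y axis, log2) against the mean level of both arrays (x axis, log2 of the signal over the 75th percentile), 1 point per probe. The 261 lowered probes (blue) and the 191 raised probes (red) lie past the dashed 2-fold lines and outside the range of the 4 mock arrays, and some of the most changed genes are named.

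CDH1, the gene of E-cadherin from whose promoter dsEcad640 was designed, was dim. Its level was -3.25 under dsEcad640 and -4.14, -3.97, -3.16 and -3.94 on mock samples 1, 8, 9 and 11 (chr16:67426715-67426774). It lay 1.89-fold above mock sample 1 but within the range of the mock arrays. ZEB1, a repressor of CDH1 and a driver of the mesenchymal state, had a level of -5.52 under dsEcad640 and of -4.18, -4.30, -3.46 and -3.81 on the mock arrays (1.89-fold lower, below all 4). Both fell short of 2-fold from mock sample 1 in the deposited values, but on scanner signals the difference of ZEB1 was -1.34. ZEB1 was dim too, and under dsEcad640 it lay near the lowest level well above background on that array (-5.80).

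The other repressors gave no common direction. ZEB2 (difference -0.44) was below all mock arrays and SNAI1, the gene of Snail (0.68), above all. SNAI2, the gene of Slug, had a level of 0.25 under dsEcad640 and of 0.27 on mock sample 1, the lowest of the mock arrays. TCF3, TCF4 and TWIST1 lay within the mock range, with differences of 0.01, -0.39 and -0.05. In all, 0 of the 11 measured genes of this list were past 2-fold, with a median difference of -0.03, against 0.004 over all genes. Below all mock arrays were 3 of the 11 (27.3%) and above them 2. These shares were close to those over all 12928 genes, of which 3341 (25.8%) were below and 2533 above.

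Of 29 measured epithelial junction and splicing genes, 23 lay above 0, against 6536 of all 12928 genes (50.6%), with a median difference of 0.18 and 0 past 2-fold. The median level of the list was -1.05 under dsEcad640, within the -1.23 to -1.03 of the mock arrays. The cell adhesion gene EPCAM was largest on the higher side, with a level of 1.78 under dsEcad640 and of 0.98, 1.12, 1.56 and 2.37 on the mock arrays, so that it lay within their range. On the other slides the medians of this list were 0.12 for miR-373, 0.21 for miR-372 and 0.33 for miR-520c, and 0.04 between mock samples 9 and 11.

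Of 38 mesenchymal and matrix genes, 0 were lowered and 3 raised, with a median of -0.07. Over all 12928 genes, 146 (1.13%) were lowered and 116 (0.897%) raised. The lists were chosen with earlier results of these data known. MMP1, the interstitial collagenase, had a level of 0.43 under dsEcad640 and of -1.31, -1.23, -0.91 and -0.33 on the mock arrays (3.31-fold higher). MMP13, another collagenase, had a level of -2.85 against -4.06, -3.79, -3.65 and -4.69 (2.28-fold higher). COL1A1, a chain of type I collagen, had a level of -2.22 against -3.53, -3.50, -3.68 and -3.13 (2.39-fold higher); it is also a fibroblast marker, and the fibroblast markers PDGFRB and DCN were not well above background. Each of these 3 genes lay above all mock arrays, but after normexp background correction and quantile normalization the differences of MMP13 and COL1A1 were 0.62 and 0.81.

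In the TGF-β, activin and BMP pathway, receptors and ligands moved in both directions, with 2 of 36 genes lowered and 3 raised. Over all genes, 1.13% were lowered and 0.897% raised. Beside TGFBR2 and ACVR2B, the activin and inhibin subunit INHBB fell from 5.81 on mock sample 1 to 4.71 (mock range 5.76 to 6.21). GDF15, a stress-induced ligand, had a level of 4.97 under dsEcad640 and of 3.58, 3.50, 3.49 and 4.91 on the mock arrays, so that mock sample 11 was almost level with it. On the other slides GDF15 differed by -0.60 under miR-373 (from mock sample 8), -0.61 under miR-372 (from mock sample 9) and -0.65 under miR-520c (from mock sample 11). Mock sample 9 itself differed by -1.33 from mock sample 11 on that slide. The direction under miR-520c therefore depended on the mock array taken. LATS2, a kinase of the Hippo pathway and a known target of this miRNA family, had a level of -1.86 against -0.74, -0.76, -0.48 and -0.58 (2.01-fold lower) and was the only one of 27 Hippo genes past 2-fold, though only just (difference -1.01, and -0.92 after normexp and quantile normalization).

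Cell cycle genes showed a small shift at G2 and mitosis. Of 38 such genes 0 were past 2-fold, but 34 (89.5%) lay below 0, against 49.3% of all genes, with a median of -0.23. Below all 4 mock arrays were 23 (60.5%), against 25.8% of all genes. The median level of the list was 2.48 under dsEcad640 and 2.59 to 2.67 on the mock arrays. CDC25B, the phosphatase that activates mitotic CDK1, differed most (-0.84), but at a level of 1.28 it lay between mock sample 11 (1.22) and mock sample 9 (1.52). KIF23, a kinesin of cytokinesis, had a level of 1.42 against 2.00, 1.99, 2.47 and 2.66. On the other slides the medians were -0.01 under miR-373, -0.11 under miR-372 and -0.12 under miR-520c, and 0.10 between mock samples 9 and 11. A shared direction was not particular to this list or to dsEcad640. Between mock samples 9 and 11, 30 of the 38 lay above 0 and 29 of 34 S phase genes below 0. Under dsEcad640, 32 of 35 ribosomal protein genes lay above 0.

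Of 30 regulators of G1, 2 were lowered and 2 raised, against 1.13% and 0.897% of all genes. E2F1, a transcription factor of S phase entry, had a level of 1.33 under dsEcad640 and of 2.34, 2.46, 2.30 and 2.46 on the mock arrays, and RBL1, the pocket protein p107, had -2.74 against -1.51, -1.50, -0.99 and -0.62. CCNE1, cyclin E1, had a level of 2.22 against 1.12, 1.15, 1.15 and 1.56, and E2F5, a partner of pocket proteins, 0.12 against -0.93, -0.93, -0.71 and -0.68. All 4 lay outside the mock range, at differences of about 2-fold, and RBL1 and E2F5 fell short of it after normexp and quantile normalization (-0.76 and 0.90). Of 34 S phase genes 0 were past 2-fold (median 0.11), and of 19 replication-dependent histone genes 0 (median -0.09).

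Interferon-stimulated genes and sensors of double-stranded RNA were little changed by dsEcad640, with 0 of 44 past 2-fold and a median difference of -0.01. The median level of the list was 0.47 under dsEcad640, within the 0.43 to 0.60 of the mock arrays. The miRNA duplexes differed among themselves, with median levels of -0.11 for miR-302a, -0.34 and -0.45 for miR-372 (samples 4 and 10), -0.37 for miR-373, 0.71 for miR-520f and 1.17 for miR-520c. IFIT2, an interferon-induced gene, had the largest difference of the list on the higher side (0.92), with a level of 2.92 against 1.95, 2.01, 2.37 and 3.26, and PSMB9, an immunoproteasome subunit, the largest on the lower side (-0.75), with 0.46 against 1.20, 1.20, 0.39 and 0.56. Both lay within the mock range.

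Among 43 genes of NF-κB signalling and inflammation, RELA, the p65 subunit, was lowered and IL37, a member of the interleukin-1 family, was raised. Of all genes, 1.13% were lowered and 0.897% raised. RELA had a level of -0.73 under dsEcad640 and of 0.63, 0.75, 0.01 and 0.08 on the mock arrays (2.47-fold lower). IL37 had a level of -0.34 against -2.22, -2.38, -1.85 and -2.34 (3.55-fold higher). The list median was 0.003. Between mock samples 9 and 11 it was -0.39, with 9 of the 43 genes at least 2-fold lower. Of the 3 measured ligands of the natural killer receptor NKG2D, ULBP2 was lowered (-3.82 against -2.46, -2.54, -3.49 and -3.01, difference -1.07, and -0.53 after normexp and quantile normalization), and the brightest probes of MICB and MICA differed by -0.38 and -0.27. Another probe of each was lowered, with differences of -1.18 for MICB and -1.67 for MICA.

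The machinery of small RNAs itself held 1 lowered and 1 raised gene of 25, against 1.13% and 0.897% of all genes. AGO1, an Argonaute protein, had a level of 0.70 under dsEcad640 and of 1.71, 1.74, 1.95 and 1.68 on the mock arrays (2.06-fold lower), and DCP2 was the raised gene (list median 0.06). Of 24 chromatin regulators linked to reprogramming, 2 were lowered and 2 raised (median 0.14), against the same 1.13% and 0.897% of all genes. MBD2, which binds methylated DNA, had a level of 1.40 against 3.41, 3.36, 3.75 and 3.63 (4.08-fold lower), and KDM1B, a histone demethylase, -5.41 against -3.35, -3.57, -3.07 and -3.48 (2.95-fold lower). TET1, which oxidises methylcytosine, had -2.99 against -4.69, -4.56, -4.19 and -4.34 (3.10-fold higher), and DNMT3B, a DNA methyltransferase, 0.68 against -0.58, -0.57, -0.07 and 0.01 (2.38-fold higher). The 4 genes kept these directions under miR-373, miR-372 and miR-520c wherever they were measured, while normexp and quantile normalization gave smaller differences of -0.68 for KDM1B and 0.70 for TET1.

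Secretory and degradation pathways held few changed genes, with 2 past 2-fold of 36 genes of the COPII coat and early secretory traffic (median -0.03), 1 of 12 GALNT enzymes (list median -0.29), 1 of 35 autophagy and lysosome genes (0.04) and 2 of 22 BCL2 family genes (0.17). Over all genes, 1.2% were at least 2-fold lower and 0.928% at least 2-fold higher. SEC23A, a subunit of the COPII coat of vesicles leaving the endoplasmic reticulum, had a level of 0.75 under dsEcad640 and of 2.28, 2.44, 2.55 and 2.54 on the mock arrays (2.91-fold lower, and -1.45 at its other probe). DRAM1, a lysosomal regulator of autophagy, had -1.28 against 0.67, 0.72, 1.01 and 1.52 (3.68-fold lower, with another probe past 2-fold too and -0.23 on scanner signals at the remaining one outside the table). BNIP3L, a mitophagy receptor of the BCL2 family, had 0.54 against 1.79, 1.91, 2.01 and 1.95 (2.40-fold lower, with -0.66 at its other probe and -0.96 for their mean), and BMF, a pro-apoptotic member of that family, -1.70 against -2.73, -2.73, -3.31 and -3.58 (2.03-fold higher). All 4 lay outside the mock range, with a difference of 0.70 for BMF after normexp and quantile normalization. PREB, which activates the COPII GTPase, was 2.49-fold higher, but with a level of 2.14 under dsEcad640 and 0.78, 1.97, 1.63 and 1.60 on the mock arrays its value rested on mock sample 1, and against the mean of the other 3 mock arrays it was 0.41. A dimmer probe of GALNT3, an enzyme of the GALNT6 family, was lowered (-1.73), and its brightest differed by -0.29.

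In the remaining lists 0 to 1 gene was past 2-fold at its brightest probe, against 1.2% of all genes lower and 0.928% higher. Over all lists, 7 genes that did not count as changed had another probe lowered or raised: MICA, MICB, GALNT3, SLC7A11, CNOT6 (-1.69), SMARCC2 (-1.25) and RPL22 (1.10). Of 37 genes of cholesterol and fatty acid synthesis, 10 of the ERBB receptors and ligands and 35 ribosomal protein genes, 0 were past 2-fold, with medians of 0.03, 0.04 and 0.10. Of 37 genes of ATF4 and endoplasmic reticulum stress, ATF3 passed 2-fold (0.28 against -0.80, -0.78, -0.94 and 1.25) but lay within the mock range, since mock sample 11 was above it. A dimmer probe of SLC7A11, the cystine transporter, was raised (1.26), and its brightest differed by 0.79. Of 32 hypoxia and glycolysis genes, MXI1, an antagonist of MYC, was lowered (-2.36 against -1.14, -1.03, -1.07 and -1.15, difference -1.05, and -0.80 after normexp and quantile normalization; list median -0.08). Of 17 common reference genes, SDHA passed 2-fold (3.92 against 5.03, 4.93, 4.57 and 3.86) and also lay within the mock range.
Of 8 genes also assayed by PCR, LATS2 passed 2-fold and the list median was -0.48.

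At 24 probes dsEcad640 was at least 2-fold below both mock sample 1 and miR-302a and below all other 10 arrays (0.0939% of probes), and at 8 it was above them in the same way (0.0313%). Without the 2-fold limits, 5.21% of probes were below all other 10 arrays and 2.87% above. These 24 and 8 probes named 15 genes with a symbol on the lower side and 3 on the higher side. Lying beyond the miRNA arrays was a condition of this choice. That miR-302a differed less than dsEcad640 therefore followed from it, and the differences of the miRNA duplexes below are given only side by side. For GALNT6, the differences of the miRNA duplexes from their own mock arrays were -0.11 (miR-302a), -0.15 (miR-373), 0.16 (miR-372) and 0.28 (miR-520c), against -2.91 under dsEcad640. For IKBIP, a protein of the endoplasmic reticulum, they were -0.13, -0.16, -0.13 and -0.68, against -2.18. For the MBOAT2 probe they were -0.41, -0.41, -0.10 and -0.61, against -3.31. The IKBIP probe had a level of -5.28 under dsEcad640, near the lowest level well above background on that array (-5.80). Its difference was -1.11 after normexp and quantile normalization, and the other IKBIP probe differed by -0.25.

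In other genes of this set the miRNA duplexes went the same way by less. BTN3A2 differed by -0.91, -1.14, -1.12 and -1.11 under the miRNAs and by -2.59 under dsEcad640, and FITM2, a protein of lipid droplet formation, by -0.84, -0.63, -0.69 and -0.91 and by -2.22. On the higher side, TP53I11 differed by 2.36 under dsEcad640 and by -0.43, -0.14 and 0.08 under miR-302a, miR-372 and miR-520c. In the same order, MOB3C differed by 2.32 and by 0.11, -0.81 and -0.52, and LMBRD2 by 1.08 and by -0.27, 0.11 and -0.23. These 3 probes were absent from the log2 table of the miR-373 slide. They were dim, with mean mock levels of -3.32, -4.92 and -4.20. Other probes differed under dsEcad640 by -0.09 for TP53I11, -0.22 for MOB3C, and -0.08, 0.07 and 0.13 for LMBRD2. After normexp and quantile normalization the difference of LMBRD2 was 0.63.

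A further 1941 probes were well above background on only 1 of both arrays, 1438 on dsEcad640 and 499 on mock sample 1, with 4 left without a value by an outlier mark. For these only a bound can be given, the brighter signal over the limit of detection of the other array. The lowest level well above background was -5.80 on the dsEcad640 array and -5.29 on mock sample 1. A bound of at least 2-fold was reached by 74 of the 1438 probes and by 228 of the 499. MPEG1, a perforin-like gene of macrophages, was at least 11.3-fold higher under dsEcad640, with a level of -1.79 against -6.82, -7.30, -8.34 and -8.80 on the mock arrays, and was not well above background on any other array. DEFB105A was at least 9.05-fold, RSPO2 at least 8.22-fold and MBP at least 6.87-fold higher, and SYT15 fell between MPEG1 and DEFB105A. These bounds hold for single dim probes: another probe of MBP differed by 0.46, one of MPEG1 by -0.29 on scanner signals, and other probes of SYT15 by 0.07 and 0.42 in the deposited values and by -0.50 and 0.38 on scanner signals. On the lower side, RFPL2 was at least 15-fold lower (-7.81 under dsEcad640 against -1.89, -7.43, -7.95 and -8.25 on the mock arrays). The 5 largest bounds on that side, RFPL2, H2BC26, IRX5, TULP1 and MARK1, all rested on mock sample 1 alone, since the other 3 mock arrays had levels of -8.87 to -5.31.

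Promoters were searched for the E-box CACCTG on both strands (CAGGTG on the other), the motif bound by ZEB and Snail proteins, from 250 bases before to 50 bases after each start in RefSeq (GRCh38.p14). It was present in 17 of the 116 lowered genes with a promoter in the table (14.7%) and in 19 of the 83 raised genes (22.9%), against 18.7% of 10390 measured genes and 20.7% of all promoters. The shares describe these letters in these windows only.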

How the data were processed

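The study measured RNA of transfected PC-3 cells on Agilent 1-colour whole human genome arrays. Per the file headers, the spot intensity values were background-subtracted and detrended by Feature Extraction 10.5.1.1. The authors also deposited a log2 table for each of the 3 slides; its ranks within an array are those of the scanner signals, and how it was normalized is not given in the sources used here. Differences were taken from this table within a slide, and levels from processed signals over the 75th percentile of each array, without outlier-marked spots. A change of at least 2-fold was counted, with no test, since 1 array carried dsEcad640. Its precision is limited by the number of arrays. Probes were renamed through RefSeq for 27743 of 41000 probes. Genes of 27 lists took their brightest probe. Named genes were CDH1 and its repressors, the 15 lowest and 15 highest differences beyond all mock arrays, up to 5 bounds and 5 differences beyond the other 10 arrays per direction, and up to 4 members per list. The members and lists were chosen with earlier results of these data known. Alternatives were other normalizations (normexp with offset 50 in limma 3.58.1, R 4.3.3), filters, mock arrays, folds and probe rules. Counting was tested on simulated data, with changes larger than 2-fold planted in brighter probes and independent noise on each mock array. That checked the counting steps only and gives no rate of false or missed calls for these arrays.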

Additional observations from a re-analysis of the deposited data

Results flagged for a closer look

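Among 94 named probes, 11 had 1 mock array that stood far from the other 3, by the gap relative to the range of the group. Chance alone would flag about 1 in 20 groups of independent values. That rate is no yardstick here, because the mock arrays fell into pairs and many probes were named for their difference from mock sample 1. The levels below are log2 of the signal over the 75th percentile, and whether these arrays shaped the results was not tested beyond the values without them.

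In 8 of the 11 the array was mock sample 11. It was higher than the others for the stress-induced genes GDF15 (4.91 against 3.49 to 3.58) and ATF3 (1.25 against -0.94 to -0.78), for CCNE1 (1.56 against 1.12 to 1.15) and for TEAD4 (0.55 against -0.11 to -0.01). It was lower for MLC1 (-2.26 against -1.15 to -1.01), SCARA5 (-2.63 against -1.77 to -1.63), H2BC12 (2.89 against 3.20 to 3.26) and TMPRSS2 (-0.94 against -0.40 to -0.32). The dsEcad640 array lay just above mock sample 11 for GDF15 (4.97) and TEAD4 (0.68) and below it for ATF3 (0.28).

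In the other 3 the array was mock sample 1, from which every difference was taken. It was higher for EFEMP2 (-2.68 against -5.47 to -5.07), RFPL2 (-1.89 against -8.25 to -7.43) and LMBRD2 (-4.01 against -4.27 to -4.24). For EFEMP2 and RFPL2 the dsEcad640 array was at the level of the other mock arrays. Over all probes, 3 of the 261 lowered ones had mock sample 1 at least 2-fold above the other mock arrays and above miR-302a, as had 68 of the 499 probes detected on mock sample 1 and not on the dsEcad640 array.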

How the results depend on the processing

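The counts of changed probes moved with the scaling and with the mock array, and the direction of the named probes past 2-fold did not. From 291 probes at least 2-fold lower and 211 higher, the counts became 524 lower on scanner signals over the 75th percentile, 180 lower and 96 higher after normexp and quantile normalization, 568 and 988 against the mean of the 4 mock arrays, 1320 and 1251 at 1.5-fold, and 155 and 120 with 1 value per gene. The 261 probes lowered beyond all mock arrays became 934 at 1.5-fold and 262 to 689 when mock arrays were left out in turn, and the 191 raised became 953 and 191 to 795; the counts of 689 and 795 are those without mock sample 1, where the difference was taken from the mean of the other 3 mock arrays, which lie on other slides. The shares of lowered and raised probes with the same direction on the other slides stayed at 96.1% and 95.2% on scanner signals, and were 92.7% and 90.6% for probes chosen from slide 1 alone, both alternatives chosen after seeing the data. Most of the 56 named probes past 2-fold lay beyond all 4 mock arrays on scanner signals. That fixed their direction in the scanner setting and under every change of mock array. All 56 kept their direction in every setting tried, and 44 to 56 of them stayed past 2-fold, fewest after normexp and quantile normalization. Without mock sample 1, 8 fell short of 2-fold: EFEMP2 (-0.20), PREB (0.41), ATF3 (0.44), SDHA (-0.54), ULBP2 (-0.81), DNMT3B (0.89), E2F5 (0.89) and CCNE1 (0.93). Dim probes are limited by the detection limit of each array. No paired analysis was possible because dsEcad640 was hybridised to 1 array only.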
